A study of Homo sapiens with 3 samples.

Results

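The genes described here encode the EHD proteins (EHD1, EHD2, EHD3 and EHD4), the caveolins CAV1 and CAV2, the coat protein cavin-1 (CAVIN1) and the membrane-bending protein PACSIN2. Every probe set that the array's gene annotation assigned to 1 of these 8 genes alone was taken, which gave 30 probe sets of 49386 on the array, for 8 of 18239 genes. The genes were chosen by family after the EHD2 log2 differences from siNT in these same libraries had been seen, so the differences below are a description and carry no test. The RNA of GFP-SAS cells, from the established human tongue carcinoma line SAS, was hybridised to 3 Affymetrix arrays. The libraries were siAkt1-22 and siAkt1-58, each made after exposure to a different small interfering RNA (siRNA) against AKT1, and siNT, made after a non-targeting siRNA, every one at 10 nM for 24 h. The study asked what knockdown of AKT1 does to gene expression in these cells. The siRNAs against AKT1 had 1 library each, the control had 1 library, and separate cultures are not named in the labels, so any spread may be technical.

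EHD proteins are ATPases with a carboxy-terminal EH domain that assemble on membranes and bend or stabilise them. EHD1, EHD3 and EHD4 act on tubules and vesicles of the endocytic recycling route, whereas EHD2 sits at the neck of caveolae and holds these flask-shaped pits of the plasma membrane in place. Caveolins form the membrane-embedded part of the caveola and cavin-1 its outer coat, without which mice lack caveolae, and PACSIN2 shapes the curved membrane. Caveolae are abundant in endothelium, fat and muscle, and also occur in epithelial cells.

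The deposited values are log2 values from RMA, which removes background, puts arrays on a common distribution and combines the probes of each set. Their medians were 4.59 with siAkt1-22, 4.58 with siAkt1-58 and 4.59 with siNT, and with so few arrays every value has limited precision. AKT1 itself read 3.67 with siAkt1-22 and 3.47 with siAkt1-58, against 6.75 with siNT, in its brightest probe set. Averaged over its 3 probe sets, AKT1 differed from siNT by -1.44 and -1.52. A probe set was called dim when its mean over the libraries was below log2 3.93, the level that the brightest probe sets of 30% of genes did not reach. Of epithelial marker genes, 6 of 7 measured ones were not dim, from 9.16 to 11.7 with siAkt1-22, 10.03 to 11.3 with siAkt1-58 and 9.51 to 11.7 with siNT, and KRT14, a basal keratin, was dim in all 3. None of 3 measured immune markers was above the dim level, and the brightest endothelial, adipocyte and muscle markers read 4.50, 5.18 and 5.54 at most. Of these, 2 of 5 endothelial, 3 of 4 adipocyte and 5 of 5 muscle markers were not dim. Not being dim thus does not by itself show that a gene was expressed. The siAkt1-22 library stood further from siNT than siAkt1-58 did. Of 28249 probe sets that were not dim, 3.9% were higher by 2-fold or more in siAkt1-22 and 6.6% lower by that much, beside 1.44% higher and 3.56% lower in siAkt1-58. The 24 probe sets for spiked poly-A RNAs differed from siNT by a median of -0.56 in siAkt1-22 and -0.01 in siAkt1-58. Each result is therefore given for each siRNA by itself. Both differences share the siNT library.

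Of the 30 probe sets, 27 were not dim. 1 of these, a probe set of EHD2, was at least 2-fold higher than siNT with both siRNAs, and 0 were at least 2-fold lower with both. Over all probe sets that were not dim, 0.63% and 1.22% met these limits, and the choice of EHD2 used this contrast. With siAkt1-22 alone, the 3 probe sets of CAVIN1 were also at least 2-fold lower. The median difference of the 27 was -0.07 with siAkt1-22 and 0.11 with siAkt1-58, beside medians of 0 and 0 over all 28249. With siAkt1-22, 19 lay below siNT, 7 above and 1 at the same value. With siAkt1-58, 7 lay below, 16 above and 4 at the same value. Over all 28249, 46.5% lay above siNT with siAkt1-22 and 45.3% with siAkt1-58. In limma's test of the siAkt1 pair against siNT, 0 of 28249 probe sets (0%) passed in either direction, with a lowest adjusted p = 0.620, and 2173 had an unadjusted p under 0.05. That test has 1 residual degree of freedom, so a count of 0 does not show that levels were equal.

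**Figure D1:**
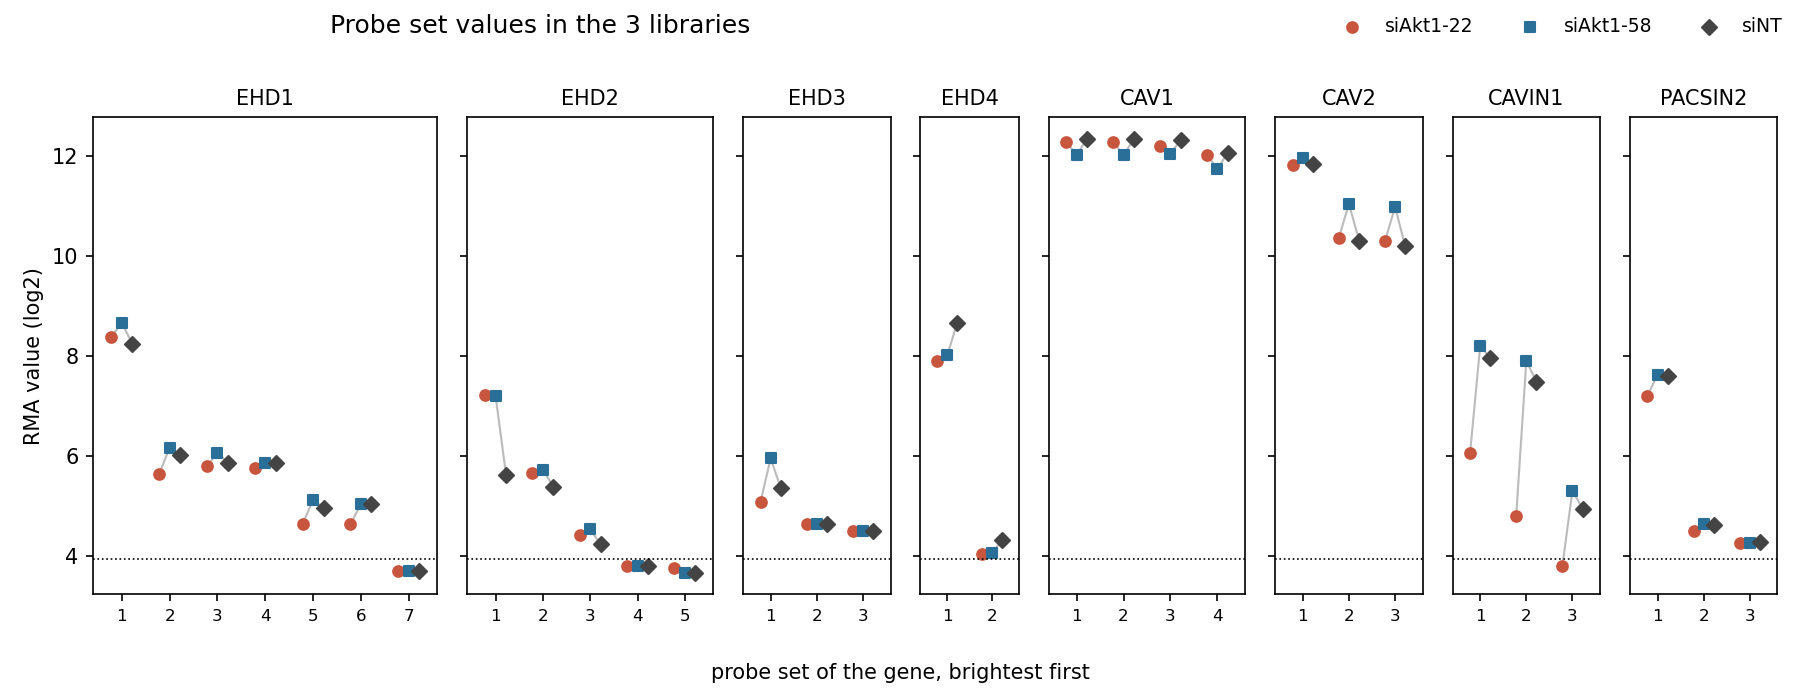
Values (log2, vertical axis) of the 30 probe sets in siAkt1-22 (circles), siAkt1-58 (squares) and siNT (diamonds), 1 library each, by gene and ordered from the brightest probe set. The dotted line is the dim level of 3.93, and heights can be compared within a probe set but not between probe sets. EHD2's brightest probe set reads 7.22 and 7.20 against 5.63 with siNT, and all 3 CAVIN1 probe sets are lowest with siAkt1-22.

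EHD2, the caveolar member of the EHD family, read higher than siNT with either siRNA, and by nearly the same amount. The brightest EHD2 probe set, 11746200_s_at, read 7.22 with siAkt1-22 and 7.20 with siAkt1-58, against 5.63 with siNT. The siAkt1 libraries lay close together and the siNT library apart from them. In RNA from a whole culture, a level per cell and the number of cells that express a gene cannot be told apart. The difference was 1.60 with siAkt1-22 and 1.58 with siAkt1-58, a mean of 1.59 ± 0.01 (SD, n = 2), or 3.02-fold and 2.98-fold. Ranked by the smaller of both differences in the brightest probe set, EHD2 was number 12 of 12779 genes. EHD2 was chosen with these differences known, so its rank is a description.

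The remaining EHD2 probe sets showed less. Probe set 11719781_a_at read 5.66 with siAkt1-22 and 5.73 with siAkt1-58, against 5.38 with siNT, and 11747603_x_at read 4.42 and 4.53, against 4.23 with siNT. Both kept the order of the brightest one, with siNT lowest, but at differences of 0.28 and 0.35, and of 0.19 and 0.30. The last 2 EHD2 probe sets were dim. One read 3.79 in all 3 libraries, and the other read 3.76 with siAkt1-22 and 3.66 with both siAkt1-58 and siNT. Averaged over its 5 probe sets, EHD2 stood at 0.43 with siAkt1-22 and 0.44 with siAkt1-58 relative to siNT. The 3-fold size thus rests on 1 probe set, and why the probe sets differ was not tested. By the array maker's naming, an ending of _x_at marks probe sets in which some probes can also bind other transcripts, and 3 of the 5 EHD2 probe sets carry it. The brightest one ends in _s_at, which marks probes shared by several transcripts, so its ending does not show that it reads EHD2 alone.

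The sequence before the start of EHD2 is shown because EHD2 was the gene at least 2-fold higher with both siRNAs. It is the 250 bases upstream of the gene's start in RefSeq's promoter table (GRCh38.p14), chr19:47713172-47713421 on the plus strand, with matches to the GC box in capitals. The GC box searched for was GGGCGG on either strand.
EHD2: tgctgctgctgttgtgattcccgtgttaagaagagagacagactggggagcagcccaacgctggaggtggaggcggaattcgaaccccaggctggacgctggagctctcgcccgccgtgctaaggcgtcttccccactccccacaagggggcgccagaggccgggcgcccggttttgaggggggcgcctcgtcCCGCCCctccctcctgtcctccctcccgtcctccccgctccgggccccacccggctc
EHD2 had 1 GC box there and 69.6% G and C, against a median of 58% over 27305 promoters. Of the 8 genes, 7 had an entry (all but CAVIN1), and 4 of those 7 (EHD2, EHD4, CAV1 and CAV2) held a GC box, as did 42.3% of all promoters. The letters TGTTTAC, the core bound by FOXO factors, which AKT phosphorylates, were found in 0 of the 7 on either strand and in 2.98% of all promoters. GGAATG, the core bound by TEAD factors, was found in 1 of the 7 (PACSIN2) and in 11.9% of all, and CACGTG, an E-box, in 0 of the 7 and in 6.49% of all. These matches describe letters in a short window and say nothing of the factors.

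None of the other EHD genes was at least 2-fold higher than siNT with both siRNAs. EHD4, a recycling EHD protein, read lower than siNT with both siRNAs: the brighter probe set read 7.91 with siAkt1-22 and 8.01 with siAkt1-58, against 8.65 with siNT. The siNT library was highest and the siAkt1 libraries lay close together. The difference averaged -0.69 ± 0.07 (SD, n = 2), or 1.68-fold and 1.56-fold lower, and this SD again holds no error of siNT. The second EHD4 probe set read 4.04 with siAkt1-22 and 4.05 with siAkt1-58, against 4.32 with siNT. Both probe sets thus had siNT on top, but the second lay near the dim level of 3.93 and adds little. Ranked by the smaller of both differences, EHD4 was number 390 from the lower end of the 12779 genes. Among the EHD genes, all probe sets of EHD2 that were not dim lay above siNT with both siRNAs, and both of EHD4 lay below it.

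EHD1, the EHD protein known for returning receptors from the recycling endosome to the surface, read 8.38 with siAkt1-22 and 8.67 with siAkt1-58, against 8.25 with siNT, in its brightest probe set. Both siAkt1 libraries lay above siNT there, at 0.13 and 0.42. The other 5 EHD1 probe sets that were not dim went from -0.41 to -0.07 with siAkt1-22 and from 0 to 0.21 with siAkt1-58. With siAkt1-22 the direction thus depends on the probe set, and with siAkt1-58 none lay below siNT. The remaining EHD1 probe set was dim and read 3.69 in all 3 libraries. 4 of the 7 EHD1 probe sets end in _x_at, and whether they also bind transcripts of other EHD genes was not tested.

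EHD3, which resembles EHD1 and acts on recycling endosomes, had 1 probe set with measurable differences. It read 5.08 with siAkt1-22 and 5.95 with siAkt1-58, against 5.36 with siNT, so the siRNAs lay on opposite sides of siNT at -0.28 and 0.59. The other EHD3 probe sets read 4.64 in all 3 libraries, and 4.51 with siAkt1-22 and 4.50 with siAkt1-58 and siNT. Equal values of this kind are common in the table: 8 of the 30 probe sets and 45.1% of all single-gene probe sets were equal in at least 1 pair of libraries.

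CAVIN1, which encodes the coat protein that caveolae need, read lowest with siAkt1-22 in all 3 of its probe sets. The brightest, 11730730_s_at, read 6.05 with siAkt1-22 and 8.21 with siAkt1-58, against 7.95 with siNT. The siAkt1-22 library stood alone, while siAkt1-58 lay slightly above siNT. These values are 3.74-fold lower with siAkt1-22 than with siNT (-1.90) and 1.19-fold higher with siAkt1-58 (0.25). Of the 12779 genes, 169 including CAVIN1 were as low or lower with siAkt1-22.

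The other CAVIN1 probe sets had the same order. Probe set 11745377_x_at read 4.80 with siAkt1-22 and 7.90 with siAkt1-58, against 7.49 with siNT, and 11749223_a_at read 3.79 and 5.30, against 4.94 with siNT. The siAkt1-22 library was again the low one, at differences of -2.69 and -1.16. With siAkt1-58 they stood at 0.42 and 0.36. Set against siAkt1-58, siAkt1-22 was 4.46-fold, 8.59-fold and 2.86-fold lower in the 3 probe sets. In the last of these the siAkt1-22 value of 3.79 was under the dim level, so that fold is read against dim signal. The siAkt1-22 value of 4.80 behind the 8.59-fold gap was above the dim level. It was still below the 5.18 that ADIPOQ, an adipocyte marker, read in all 3 libraries. Heights of different probe sets are not directly comparable, and how near the 4.80 lay to background was not tested. Over all probe sets that were not dim, 3.92% were lower in siAkt1-22 than in both other libraries by 2-fold or more. The brightest AKT1 probe set stood at -3.08 with siAkt1-22 and -3.28 with siAkt1-58, but both readings were below the dim level. These differences thus do not measure how much AKT1 mRNA remained. The spiked poly-A controls were also low in the siAkt1-22 library (median -0.56), and their part in the CAVIN1 difference was not tested.

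The caveolins were bright in all libraries. CAV1, the caveolin that caveolae of most tissues require, read 12.28 with siAkt1-22 and 12.02 with siAkt1-58, against 12.35 with siNT, in its brightest probe set. All 4 CAV1 probe sets had siNT highest and siAkt1-58 lowest. Their differences went from -0.13 to -0.03 with siAkt1-22 and from -0.33 to -0.28 with siAkt1-58, a narrow range over the probe sets. The highest value in the table was 13.4, so CAV1 lay near the upper end of the scale, and whether differences are compressed there was not tested.

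CAV2, the partner that depends on CAV1 to reach the cell surface, was split by probe set. The brightest, 11725964_a_at, read 11.83 with siAkt1-22 and 11.96 with siAkt1-58, against 11.85 with siNT, which differ by -0.02 and 0.11 from siNT. Probe set 11729334_a_at read 10.36 with siAkt1-22 and 11.05 with siAkt1-58, against 10.31 with siNT. Probe set 11725965_a_at read 10.29 with siAkt1-22 and 10.99 with siAkt1-58, against 10.20 with siNT. In these the siAkt1-58 library was the high one, at 0.73 and 0.79 or 1.66-fold and 1.72-fold, while siAkt1-22 stood at 0.05 and 0.09.

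CAV1 and CAV2 are next to each other on chromosome 7, with 0 protein-coding genes starting between them in RefSeq. Their upstream sequences are shown because these neighbours lay on opposite sides of siNT with siAkt1-58 (CAV1 from -0.33 to -0.28, CAV2 from 0.11 to 0.79). Both are from the plus strand (GRCh38.p14), chr7:116524759-116525008 for CAV1 and chr7:116499488-116499737 for CAV2, with the GC boxes in capitals.
CAV1: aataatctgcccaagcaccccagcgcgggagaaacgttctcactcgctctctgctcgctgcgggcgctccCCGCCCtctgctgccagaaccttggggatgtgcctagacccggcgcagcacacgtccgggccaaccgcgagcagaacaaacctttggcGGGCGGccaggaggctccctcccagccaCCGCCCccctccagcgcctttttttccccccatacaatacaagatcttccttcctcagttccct
CAV2: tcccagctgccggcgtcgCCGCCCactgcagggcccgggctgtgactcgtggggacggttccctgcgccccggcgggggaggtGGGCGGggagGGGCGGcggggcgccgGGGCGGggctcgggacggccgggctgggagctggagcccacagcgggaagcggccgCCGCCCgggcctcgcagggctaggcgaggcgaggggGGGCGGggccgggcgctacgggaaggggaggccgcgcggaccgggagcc
CAV1 had 3 GC boxes and 63.6% G and C, and CAV2 had 6 and 83.2%.

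PACSIN2, an F-BAR protein that shapes the caveolar neck, read 7.20 with siAkt1-22 and 7.63 with siAkt1-58, against 7.61 with siNT, in its brightest probe set. The siAkt1-22 library lay lower by -0.41, and siAkt1-58 was level with siNT at 0.02. The second PACSIN2 probe set read 4.50 with siAkt1-22, against 4.63 with siAkt1-58 and 4.62 with siNT, and the last one differed by -0.02 with either siRNA. The low library was thus siAkt1-22 in both of the brighter probe sets, as for CAVIN1 but at a far smaller size.

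**Figure D2:**
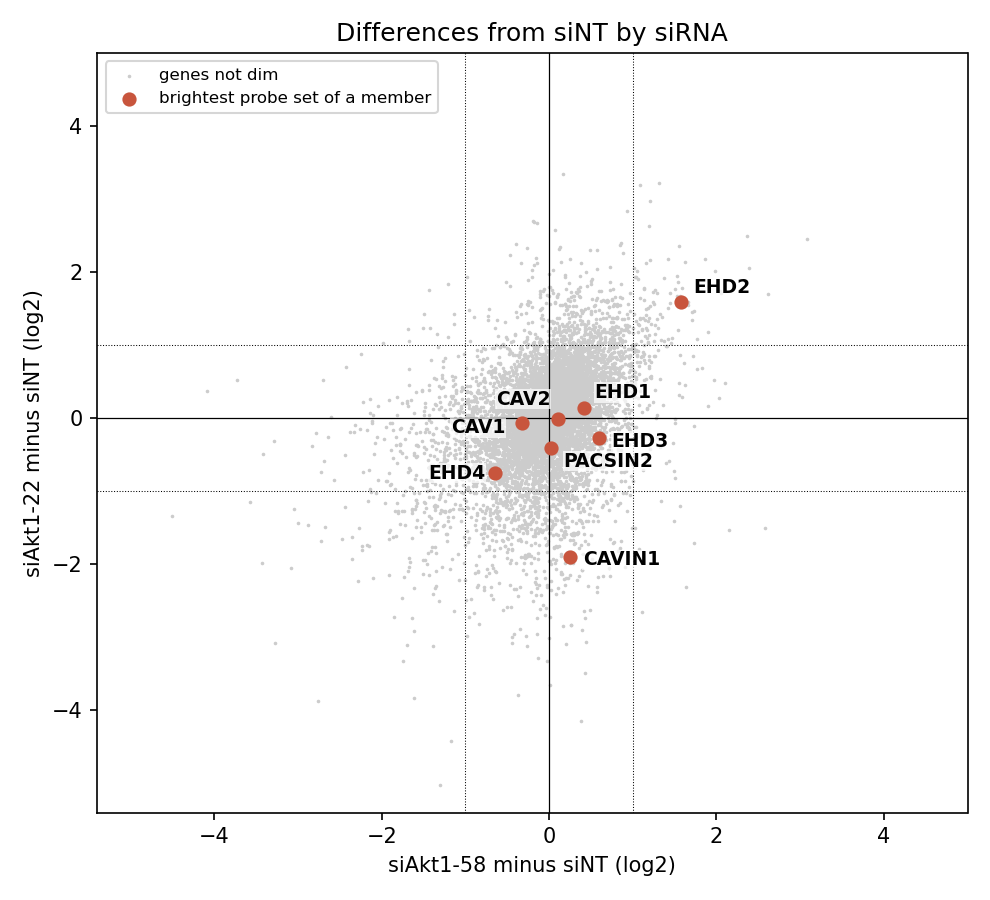
Differences from siNT (log2) with siAkt1-58 (horizontal axis) and siAkt1-22 (vertical axis) for the 12779 genes that were not dim (grey), by brightest probe set, with the 8 members in red. Dotted lines mark 2-fold. EHD2 lies at 1.58 and 1.60 in the upper right and CAVIN1 at 0.25 and -1.90 below the centre. EHD4, at -0.64 and -0.75 in the lower left, and the other 5 members all lie within 2-fold of siNT on both axes. Both axes share the siNT library.

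By brightest probe set, 1 of the 8 genes (EHD2) was at least 2-fold higher than siNT with both siRNAs and 0 were at least 2-fold lower with both, beside 0.736% and 1.17% of the 12779 genes. Within each member, the siRNAs were then compared directly. CAVIN1 was 4.46-fold lower with siAkt1-22 than with siAkt1-58 and EHD3 1.83-fold lower, while EHD2 differed by 1.01-fold and EHD4 by 1.07-fold. A gap of 2-fold or more between the siRNAs was met by 10.3% of genes in either direction, and CAVIN1 was the member that met it. The genes with differences nearest to those of EHD2, by Euclidean distance over both differences from siNT, were APH1B, LEPR, GULP1, VAV3 and OAS1. Their distances to EHD2 were 0.02 to 0.09 log2 units, over 3 libraries that share siNT, so the likeness is a description. APH1B, the nearest, read 3.57 with siNT, under the dim level, so its differences are read against dim signal. LEPR, the leptin receptor, was at 1.54 with siAkt1-22 and 1.56 with siAkt1-58, and GULP1, an adaptor for engulfment, at 1.67 and 1.57.

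Further genes of caveolae, endocytic recycling and related coats were read from 5 lists, of which 63 genes of 67 were measured and not dim. By brightest probe set, none was at least 2-fold higher or lower than siNT with both siRNAs. With siAkt1-22 alone, 7 of the 63 were at least 2-fold lower and 1 was at least 2-fold higher, beside 5.97% and 4.4% of all genes that were not dim. With siAkt1-58 alone, 0 were lower and 0 higher by that probe set, beside 3.58% and 1.54% of all genes, although dimmer probe sets of ITSN1 and ANXA2 passed 2-fold. The medians of the 63 were 0 with siAkt1-22 and 0.08 with siAkt1-58, beside 0 and 0 over all 12779 genes. The genes past the limit with siAkt1-22 stand with their lists in what follows.

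Of the other caveolar coat genes, 6 of 7 were not dim. CAVIN3, a cavin that joins the coat, read 6.36 with siAkt1-22 and 6.16 with siAkt1-58, against 5.51 with siNT, so both siAkt1 libraries lay above siNT by 0.85 and 0.65. ROR1, a receptor-like kinase known to bind caveolin-1 and cavin-1, read 5.19 and 5.45, against 6.42 with siNT, and both siAkt1 libraries lay below siNT by -1.23 and -0.97. CAV3, the muscle caveolin, was near the dim level and differed by 0.05 with either siRNA. CAVIN2, another cavin, was chosen after its values were seen. It read 7.22 with siAkt1-22 and 8.05 with siAkt1-58, against 7.25 with siNT, and its other probe set read 5.79 and 6.88, against 6.02. With siAkt1-58 high in both, at 0.80 and 0.86, CAVIN2 resembled the dimmer CAV2 probe sets. With siAkt1-58, CAVIN1 (0.25), CAVIN2 (0.80) and CAVIN3 (0.65) lay above siNT by brightest probe set, as did 45.6% of all genes that were not dim. CAVIN4, a cavin that was dim, was at -0.17 there, and PACSIN3, another coat gene of the list, at -0.44. Both were named after their values were seen. With siAkt1-22 the cavins that were not dim split. CAVIN3, read by 1 probe set, was above siNT, CAVIN2 was at -0.03, and CAVIN1 was far below siNT.

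Of 21 genes for EHD partners and endocytic recycling, 13 lay below siNT with siAkt1-22 and 7 above, with a median of -0.27. With siAkt1-58, 9 lay below and 12 above, with a median of 0.11. Over all 12779 genes that were not dim, 48.5% lay above siNT with siAkt1-22 and 45.6% with siAkt1-58. RAB10, a GTPase of surface delivery, was at 0.44 with siAkt1-22 and 0.39 with siAkt1-58. RAB35, a recycling GTPase, was at -0.38 and -0.25. TFRC, the transferrin receptor and a classical cargo of EHD1-dependent recycling, read 10.30 with siAkt1-22 and 10.27 with siAkt1-58, against 10.86 with siNT. Its 3 probe sets all had siNT highest, with differences from -0.60 to -0.45.

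Of the 21 genes of that list, 3 were at least 2-fold lower with siAkt1-22, beside 5.97% of all genes that were not dim. These were RAB11FIP2, MICALL1 and EHBP1, named here after their values were seen. All 3 encode proteins that bind EHD proteins. The list did not fall as a whole: 7 of the 21 lay above siNT with siAkt1-22, among them SNAP29 (0.26) and RBSN (0.34). EHBP1L1 (-0.21) and MICALL2 (-0.12) lay only slightly below it. RAB11FIP2, a RAB11 effector, read 4.95 with siAkt1-22 and 7.35 with siAkt1-58, against 7.10 with siNT, and its 4 probe sets went from -2.34 to -0.71 with siAkt1-22. MICALL1, which recruits EHD1 to tubular endosomes, read 6.40 and 7.59, against 7.74 with siNT. EHBP1, named for its binding to EHD proteins, read 7.85 and 9.20, against 9.01 with siNT, and its 3 probe sets that were not dim went from -1.16 to -0.85 with siAkt1-22. In all 3 genes siAkt1-22 was the low library, as in CAVIN1, and siAkt1-58 lay between -0.15 and 0.25 of siNT in the brightest probe set.

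Of the membrane fission and BAR protein genes, 11 of 13 were not dim, with medians of 0 with siAkt1-22 and -0.10 with siAkt1-58. SH3GL1, an endophilin, was at 0.98 with siAkt1-22 and 0.57 with siAkt1-58, but at 0.15 to 0.37 in its other probe sets. SNX9, a BAR-domain sorting nexin, was at 0.65 and 0.18. FNBP1L, an F-BAR protein, was at -0.18 and -0.82, and from -0.35 to 0.08 with siAkt1-22 in its other probe sets. DNM2, the dynamin that cuts endocytic necks, named after its values were seen, was at 0.20 and -0.13, within 2-fold of siNT with either. ARHGAP26, which encodes the BAR protein GRAF1 and was named after its values were seen, read 5.25 with siAkt1-22 and 6.50 with siAkt1-58, against 6.67 with siNT. Its 6 probe sets went from -1.42 to -0.07 with siAkt1-22.

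The clathrin coat list, the main coated route of endocytosis, had all 17 genes above the dim level and medians of 0.03 with siAkt1-22 and 0.10 with siAkt1-58. The scaffolds ITSN1 (0.37 and 0.93) and ITSN2 (0.49 and 0.41) and the adaptor EPN1 (0.45 and 0.40) lay above siNT with both siRNAs. Dimmer ITSN1 probe sets reached 1.05, 1.22 and 1.25 with siAkt1-58, while the remaining ones at or above the dim level lay from 0 to 0.58. PICALM, a clathrin assembly protein, was the gene at least 2-fold lower with siAkt1-22, and was named after its values were seen. It read 8.31 with siAkt1-22 and 9.80 with siAkt1-58, against 9.65 with siNT, and all 6 of its probe sets were low with siAkt1-22, from -1.87 to -1.34.

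Among 8 measured genes for raft proteins and caveola anchors, ANXA2, an annexin that binds membranes and actin, was at 0.72 with siAkt1-22 and 0.97 with siAkt1-58, with all 6 of its probe sets above siNT with both. Of these, 3 dimmer ones were past 2-fold with siAkt1-58, at 1.03, 1.19 and 1.39. SRC, the kinase that phosphorylates caveolin-1, was at 0.49 and 0.30, and STOM, a stomatin of rafts, at -0.13 and -0.57, although its other probe sets were at 0.01 to 0.15 with siAkt1-22. FLOT1, a flotillin of a separate raft domain and named after its values were seen, read 9.93 with siAkt1-22 and 8.72 with siAkt1-58, against 8.62 with siNT. Its 6 probe sets that were not dim went from 1.12 to 1.85 with siAkt1-22 and from 0.10 to 0.24 with siAkt1-58. FLOT2, its partner, also named after its values were seen, was at -0.11 and 0.34. ERLIN2, a prohibitin-domain protein of the endoplasmic reticulum, was the gene of this list past 2-fold lower with siAkt1-22. Its brightest probe set was at -1.06 with siAkt1-22 and 0.28 with siAkt1-58. The other ERLIN2 probe sets that were not dim were at -0.81, -0.25 and 0 with siAkt1-22.

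**Figure D3:**
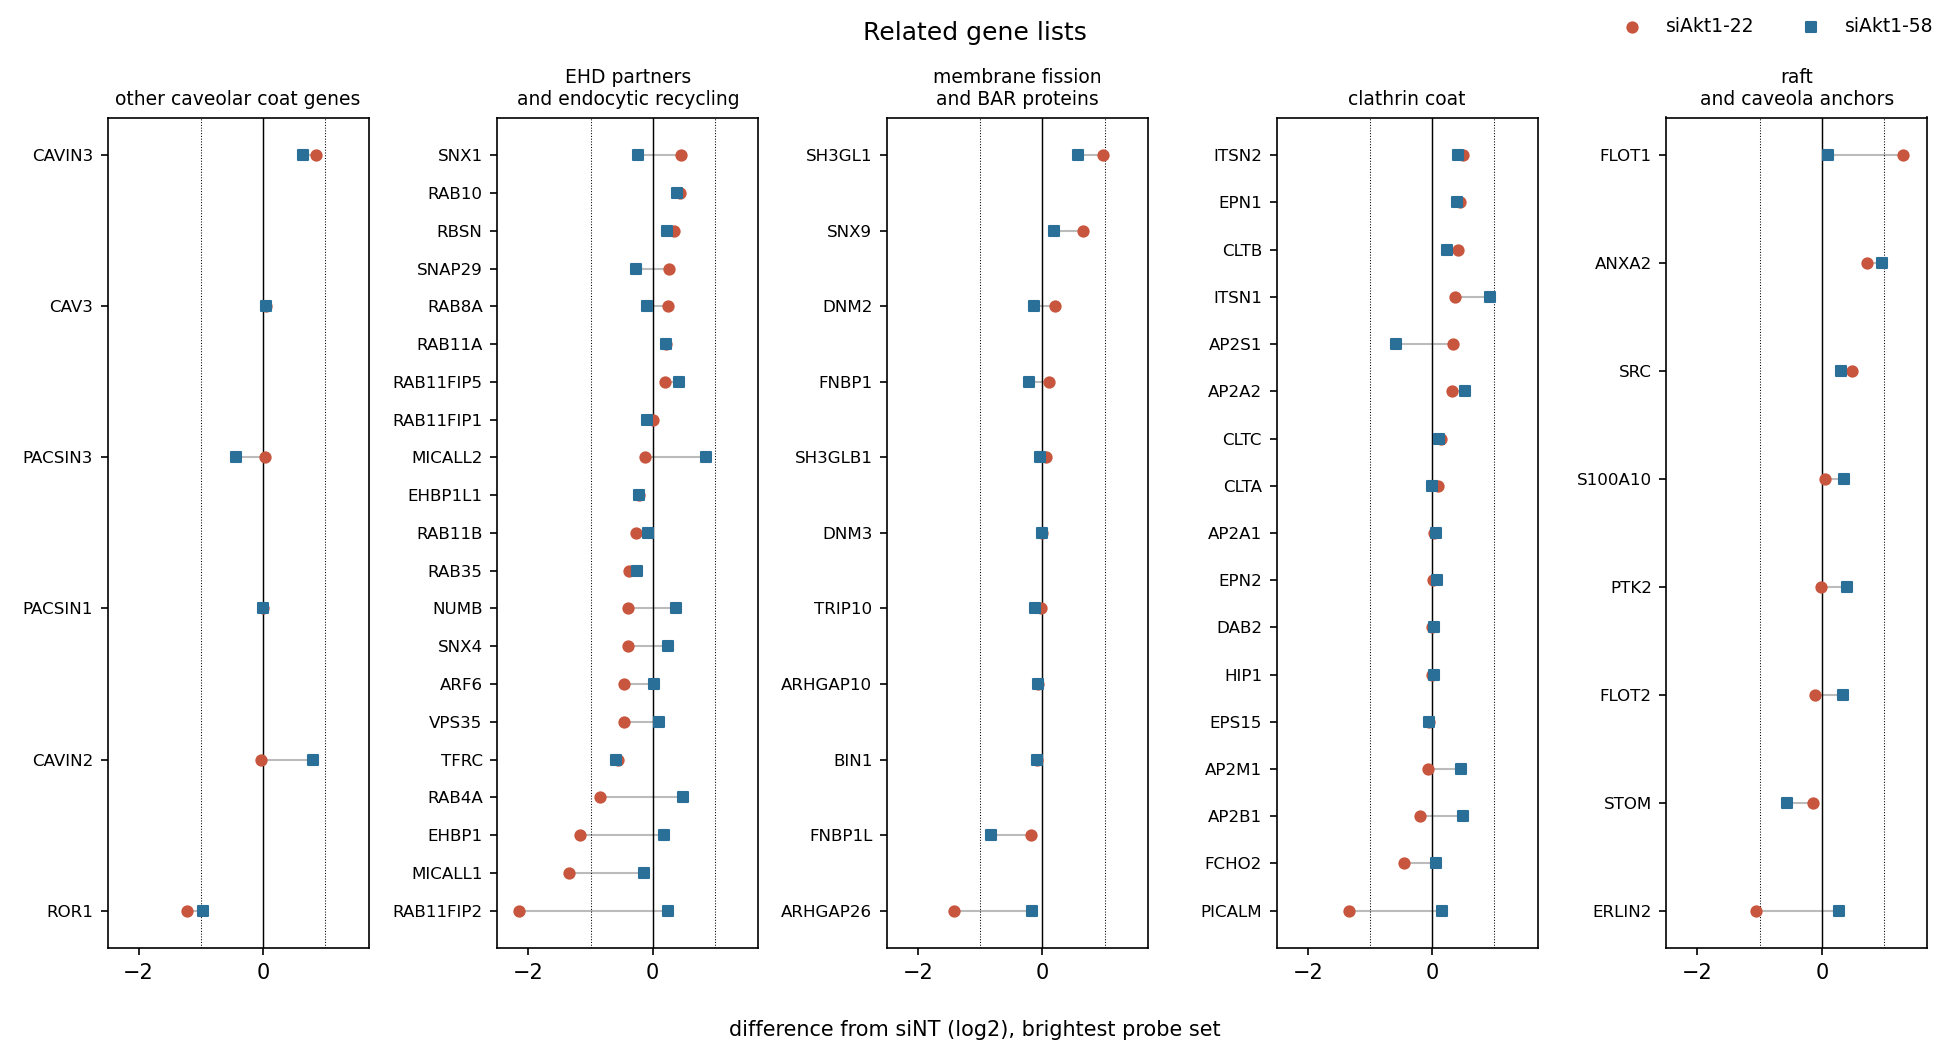
Differences from siNT (log2, horizontal axes) with siAkt1-22 (circles) and siAkt1-58 (squares), 1 library each, for the 63 genes of the 5 related lists that were not dim, by brightest probe set. Dotted lines mark 2-fold and a grey bar joins both siRNAs. RAB11FIP2, MICALL1, EHBP1, ARHGAP26, PICALM, ERLIN2 and ROR1 lie left of the 2-fold line with siAkt1-22, and no square lies beyond either line.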

How the data were processed

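Per the labels' protocols, 10 ng of total RNA per library was labelled with a 3' in vitro transcription kit. The deposited table holds log2 values per probe set, and the submitters' processing notes name RMA without version or settings. That the scale is log2 rests on the range of the values, 2.20 to 13.4. Scan dates and batches were not analysed here.

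Of 49386 probe sets, 45253 had 1 gene symbol in the platform annotation, updated through Entrez identifiers for 45172, and 1327 had several; 0 of those named one of the 8 genes. The probe set with the highest mean stood for its gene (18239 genes), and genes or probe sets under the 30th percentile over genes (log2 3.93) were called dim. A rule of size (at least 2-fold from siNT in each siAkt1 library) was used beside limma (version 3.58.1, R version 4.3.3). The limma model was fitted with lmFit and eBayes over the 28249 probe sets that were not dim. Its test was two-sided, with a threshold of 0.05 after Benjamini-Hochberg and a prior of 0.482 degrees of freedom. It assumes that siNT varies like the siAkt1 libraries. The fit was tested on simulated data in which siNT was given that same spread, so the assumption itself was not tested. With 1 siNT library, every SD comes from siAkt1-22 against siAkt1-58. In each related list, up to 3 genes with the largest smaller difference in the same direction were named. The members and lists were chosen with earlier results of these data known. Symbols and upstream sequences come from RefSeq (GRCh38.p14).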

Additional observations from a re-analysis of the deposited data

How the results depend on the processing

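The EHD2 difference of 1.59 went from 1.58 to 1.60 when either siAkt1 library was left out. These are the differences of each siRNA by itself, and the siNT library they share could not be left out. After quantile normalization the EHD2 difference was 1.61. It was 0.44 with the mean of all EHD2 probe sets, which include 2 dim ones. With that mean, 0 of the 8 genes were at least 2-fold higher than siNT with both siRNAs. The count of EHD, caveolin, cavin-1 and PACSIN2 probe sets at least 2-fold lower was 0 as reported, 0 to 3 with a library left out (3 with siAkt1-58 left out, all of CAVIN1), and 1 (EHD4) with a 1.5-fold limit; by gene these were 0 to 1, and 1. Over all probe sets that were not dim, 178 were higher and 345 lower as reported. A single siRNA gave 408 to 1101 higher and 1006 to 1865 lower, and a 1.5-fold limit 818 and 1091. Median centring, quantile normalization, no filter and a filter at the 50th percentile left the other counts within 1.5 times, and limma's count stayed at 0 with trend = TRUE, no filter and quantile normalization. The 16 differences of the 8 genes kept their sign under both scalings and moved by at most 0.05. With probe sets averaged, 2 changed sign: EHD1 with siAkt1-22 (-0.17) and CAV2 with siAkt1-22 (0.04). No paired analysis was possible because the siRNAs share 1 control library.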

Other observations

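Genes near CAVIN1 in pattern were also listed, a step chosen after the CAVIN1 values were seen. The 5 genes with the smallest Euclidean distance to CAVIN1 over both differences from siNT were CD46, SCD, PRRG1, ERLEC1 and RRAS2. CD46, a complement regulator on the cell surface, read 8.84 with siAkt1-22 and 11.07 with siAkt1-58, against 10.79 with siNT. SCD, the stearoyl-CoA desaturase, read 8.73 and 10.87, against 10.59 with siNT. RRAS2, a small GTPase, read 7.12 and 9.36, against 9.10 with siNT. In each of these genes siAkt1-22 was the low library and siAkt1-58 lay slightly above siNT. The likeness covers 3 libraries and is a description.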
